A study of Triticum aestivum with 24 samples.

Results

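Family miR166 was represented on the 5p arm of its precursors by 3 of the 202 counted miRNA tags, and the levels of these 3 tags in heat-stressed and control wheat leaves are described here. The members were taken as every tag of the family whose name carries the 5p arm: miR166-11-5p, miR166-8.b-5p (miR166-8.2-5p in the study's own tables) and miR166-5.3-5p. They held 1138, 1293 and 413 reads over all libraries, 0.104% of the 2727154 reads of the family, and the other 20 tags of the family came from the 3p arm. Plants of the hexaploid wheat cv Chinese Spring, raised at 18 °C in the light and 16 °C in the dark from the selfed seed of a single plant, were kept at 37 °C for 5 days (heat) or left at the growth temperatures (control). Leaves were taken at the end of the stress (0 DAT, days after treatment) and, with both sets back at the growth temperatures, at 1 and 4 DAT. Each of the 6 groups (heat and control at 0, 1 and 4 DAT) had 4 small RNA libraries, each from a pool of the leaf RNA of 18 plants at the boot stage when the stress began, well watered throughout it. A set of plants gave a library on every day, so that the 24 libraries come from 8 sets and those of different days are not independent.

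A plant miRNA is cut from a hairpin precursor by Dicer-like enzymes as a duplex with short 3′ overhangs, of which one strand is retained by an Argonaute protein and guides the cleavage of target transcripts while the other, the star strand, is mostly lost. In family miR166 the retained strand is the 3p one, which targets class III HD-ZIP transcription factors, regulators of leaf polarity, vascular patterning and meristem function in Arabidopsis and other plants. The 5p tags are the star strands, so that their reads report a strand from the same processing event that does not pair with these targets.

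The sequences of the 3 tags are given because they tell apart tags that share most of their bases. The capitals mark bases 2 to 8, the seed.
miR166-11-5p: gGAATGTTgtctggctcgggg
miR166-8.b-5p: gGGTTGTTgtctggttcaagg
miR166-5.3-5p: tTGTTGTCtggttcaaggtct
All 3 were 21 nt long, and none of their seeds occurred in another tag of the table. Counted from 1 at the 5′ end, miR166-11-5p and miR166-8.b-5p differed at 5 of 21 positions, by A3G, A4T, C15T, G18A and G19A with the base of miR166-11-5p first. miR166-5.3-5p began 3 bases after miR166-8.b-5p on the same precursors and shared 18 bases with it. Both miR166-11-5p and miR166-8.b-5p began with G, and miR166-5.3-5p began with T, the usual first base of an Argonaute1-bound miRNA in Arabidopsis. The GC content was 61.9% in miR166-11-5p, 52.4% in miR166-8.b-5p and 42.9% in miR166-5.3-5p.

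The tags divided over homoeologous precursors of 2 chromosome groups. miR166-11-5p matched the listed precursors on chromosome 7B (chr7B:523239721-523239914, minus strand) and chromosome 7D (chr7D:495321576-495321769, minus strand) of IWGSC RefSeq v1.0. Both miR166-8.b-5p and miR166-5.3-5p matched those on 5A (chr5A:450881167-450881305), 5B (chr5B:411091726-411091864) and 5D (chr5D:350379778-350379918), all on the plus strand. A precursor of each group is shown, with the span of the counted 5p tags (first) and 3p tags (second) in capitals.
precursor on 7B: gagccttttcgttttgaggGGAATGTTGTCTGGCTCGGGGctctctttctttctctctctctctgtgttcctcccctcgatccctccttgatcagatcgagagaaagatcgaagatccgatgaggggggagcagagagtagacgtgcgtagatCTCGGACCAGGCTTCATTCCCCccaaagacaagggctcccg
precursor on 5D: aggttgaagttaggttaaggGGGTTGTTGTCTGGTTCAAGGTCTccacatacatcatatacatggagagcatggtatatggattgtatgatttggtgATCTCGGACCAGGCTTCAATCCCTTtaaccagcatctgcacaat
The precursors on 5A, 5B and 5D differed from one another by 4 or 5 single-base edits, and all 3 hold both 5p tags, so a read cannot be assigned to 1 of these homoeologous loci. The listed precursors on 1B, 1D and 4D held no counted 5p tag. The most abundant tag of the family, miR166-4.a-3p with 51.8% of its reads, matched only the precursor on 4D, so the star strand of that tag is not among the members. The list gives a single precursor per tag, and further loci of a tag, and the gene annotation around these loci, were not analysed here.

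Each 5p tag faced a counted 3p tag with which it forms a duplex with 2-base 3′ overhangs, in each case on a shared precursor, namely miR166-9-3p for miR166-11-5p, miR166-8.a-3p for miR166-8.b-5p and miR166-5.b-3p for miR166-5.3-5p.
miR166-9-3p: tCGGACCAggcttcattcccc
miR166-8.a-3p: tCGGACCAggcttcaatccct
miR166-5.b-3p: aTCTCGGAccaggcttcaatc
In each of the 3 duplexes 19 bases face each other, of which 13 form Watson-Crick pairs, 3 form G:U pairs and 3 are mismatches. The capitals again mark the seed, and miR166-9-3p and miR166-8.a-3p share theirs with 8 other 3p tags. The 3p strands differed widely in abundance. miR166-9-3p held 1073049 reads, miR166-8.a-3p 172805 and miR166-5.b-3p 1315, so the duplex of miR166-5.3-5p is a rare one in which the 2 arms were counted at levels of the same order.

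The deposited values are raw read counts, and a library held between 58501 and 300261 miRNA reads in all. Single members had between 5 and 114 reads in a library, and no library was at 0 for any of them. Levels are given as RPM, reads per 1000000 miRNA reads of the library after TMM normalization, which scales libraries so that most tags keep 1 level. Family miR166 alone took 79.7% of the reads, so that RPM are shares of a total that this family dominates. Heat and control were compared with edgeR's quasi-likelihood test with Benjamini-Hochberg adjustment, in which all 202 tags entered, at an FDR of 0.05. The standard error (SE) of a log2 fold change is its size divided by the square root of the F statistic.

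Over all 24 libraries, heat and control together, miR166-8.b-5p averaged 377 RPM (191 to 588), miR166-11-5p 335 RPM (54.5 to 665) and miR166-5.3-5p 128 RPM (61.4 to 234), which ranked them 53rd, 57th and 135th of the 202 tags by mean level. With the 3 days of a set of plants averaged, miR166-8.b-5p was 2.91-fold and miR166-11-5p 2.30-fold above miR166-5.3-5p, each in 8 of 8 sets (two-sided exact sign-flip test over sets, p = 0.00781, below which 8 sets cannot go, or 0.0117 after adjustment for 3 pairs). This order did not hold in each group. In heat at 0 DAT miR166-11-5p was above miR166-5.3-5p in 1 of 4 libraries (mean log2 ratio -0.42), and miR166-8.b-5p was above it in 3 of 4. miR166-11-5p lay 0.34 below miR166-8.b-5p on the log2 scale and was the higher of both in 2 of 8 sets (exact p = 0.0703). The 2 overlapping tags of the 5A, 5B and 5D precursors thus differed in level with 18 of 21 bases in common.

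At the end of the stress, miR166-11-5p and miR166-8.b-5p were both lower in heat than in control, while miR166-5.3-5p did not pass the test. Of the 202 tags, 8.42% were called lower in heat at 0 DAT and 17.3% in either direction, against 2 of the 3 members. The ranges of the 4 heat and the 4 control libraries did not overlap, with heat lower, for the same 2 members and for 12.4% of all tags. In either direction, 23.3% of all tags had ranges apart at 0 DAT. In bulk leaf RNA, fewer cells of a type and less RNA per cell cannot be told apart. The plot of RPM by library shows the 3 tags on the 3 days.

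**Figure D1:**
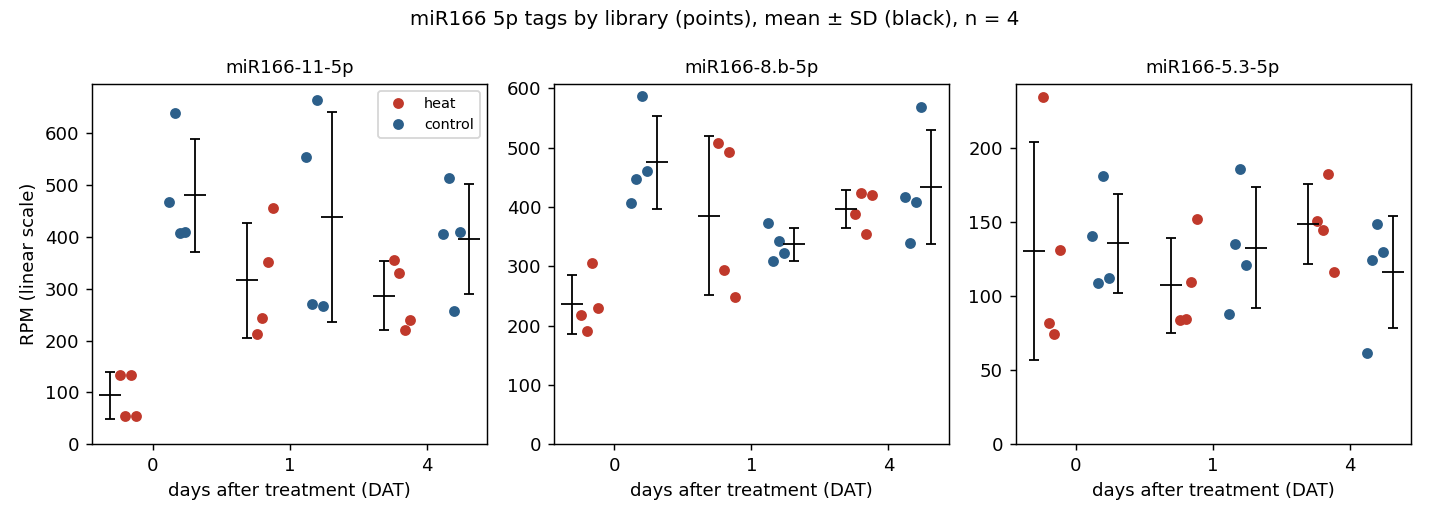
Level of each miR166 5p tag in RPM (y axis, linear from 0, scaled per panel) at 0, 1 and 4 DAT (x axis), with heat libraries in red to the left of control libraries in blue; points are libraries, black bars are the mean ± SD of 4. At 0 DAT the 4 heat libraries of miR166-11-5p, at 54.5 to 134 RPM, and of miR166-8.b-5p, at 191 to 306 RPM, lie below all control libraries.

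The star tag of the 7B and 7D precursors, miR166-11-5p, had 134, 54.5, 134 and 54.6 RPM in the heat libraries at 0 DAT (8, 6, 18 and 5 reads), against 467, 639, 407 and 409.7 RPM in the control libraries (70, 100, 27 and 73 reads). All 4 heat libraries lay well below the lowest control library. Heat libraries averaged 94.3 ± 45.9 RPM and control libraries 481 ± 109 RPM (SD, n = 4 each), and the tag fell 5.14-fold (log2 fold change -2.36, SE 0.39, 95% interval -3.17 to -1.55, adjusted p = 0.000138). Counting error alone would give an SD of 32.9 RPM in the heat group, so a large part of its spread lies within what 5 to 18 reads allow.

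miR166-8.b-5p, the star tag opposite the main miR166 3p tag of the 5A, 5B and 5D precursors, had 218, 191, 306 and 229 RPM in the heat libraries at 0 DAT (13, 21, 41 and 21 reads), against 407, 447, 588 and 460.2 RPM in the control libraries (61, 70, 39 and 82 reads). Its 2 groups also lay apart, at a smaller distance than those of miR166-11-5p. The tag fell 1.99-fold (log2 fold change -0.99, SE 0.26, 95% interval -1.54 to -0.44, adjusted p = 0.00931). This call was lost when only the library totals were used for scaling (log2 fold change -0.90, adjusted p = 0.0670).

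The overlapping tag miR166-5.3-5p had 234, 81.7, 74.5 and 131 RPM in the heat libraries at 0 DAT (14, 9, 10 and 12 reads), against 140.1, 109, 181 and 112 RPM in the control libraries (21, 17, 12 and 20 reads). The heat libraries spread on both sides of the control libraries. The log2 fold change was -0.11 (SE 0.35, adjusted p = 0.895), and its 95% interval of -0.85 to 0.64 covers levels in heat from 0.554-fold to 1.56-fold of those in control.

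Whether the 3 tags differed in their response to heat was tested within libraries, where normalization has no part, on the log2 ratio of 1 tag to another. At 0 DAT the ratio of miR166-11-5p to miR166-8.b-5p was 1.39 lower in heat on the log2 scale (SE 0.37), and the heat and control libraries did not overlap (two-sided exact permutation test, p = 0.0286, below which 4 against 4 libraries cannot go). The ratio of miR166-11-5p to miR166-5.3-5p was 2.22 lower (SE 0.52, exact p = 0.0286), again without overlap. The ratio of miR166-8.b-5p to miR166-5.3-5p was 0.84 lower (SE 0.45, exact p = 0.0857), with overlap. Adjusted over the 9 comparisons of 3 pairs on 3 days, these p-values were 0.129, 0.129 and 0.257. As 0.129 is the lowest that 2 tests at the smallest p can reach among 9, the adjusted p-values say nothing of whether the responses differ. At 1 and 4 DAT the exact p-values were 0.114 or more. These comparisons were added after the values of the tags had been seen. Among the 5p reads, miR166-11-5p made up 19.7% ± 5.85 in heat and 44.0% ± 7.90 in control at 0 DAT (SD, n = 4 each), and miR166-5.3-5p 27.8% ± 10.8 in heat and 12.4% ± 2.76 in control.

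At 1 DAT no member passed the test, against 11.4% of all tags in either direction, and no member had ranges apart, against 9.41% of all tags. With the same-numbered heat and control libraries of that day as a block, 2 of the 202 tags were called, in place of 23, and again no member. miR166-11-5p had 213, 245, 352 and 455 RPM in heat and 554, 269.9, 665 and 266.0 RPM in control. The control libraries fell into a higher and a lower pair, with 2 heat libraries in the gap and 2 below the lower pair. Its log2 fold change was -0.48 (SE 0.34, adjusted p = 0.463). For miR166-8.b-5p, the heat libraries stood at 509, 294, 492 and 248 RPM and the control libraries at 373, 309.6, 342 and 322 RPM. The 4 control libraries thus lay inside the range of the heat libraries, and the log2 fold change was 0.19 (SE 0.25, adjusted p = 0.681). miR166-5.3-5p had 83.5, 84.5, 109 and 152 RPM in heat and 87.8, 135, 186 and 121 RPM in control, again with overlap (log2 fold change -0.29, SE 0.34, adjusted p = 0.661).

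At 4 DAT none of the members and 0% of all tags were called by edgeR's quasi-likelihood test, although 26 tags, none of them a member, had an unadjusted p under 0.05 and DESeq2 called 4 tags and the likelihood ratio test 3, again no member. The ranges lay apart for 8.42% of all tags and for no member. miR166-11-5p had 356, 331, 221 and 240.4 RPM in heat and 405, 514, 256.2 and 409 RPM in control (log2 fold change -0.46, SE 0.34, adjusted p = 0.545). miR166-8.b-5p had 388, 424, 355 and 421 RPM in heat and 417, 339.9, 409 and 568 RPM in control (log2 fold change -0.13, SE 0.25, adjusted p = 0.809). For miR166-5.3-5p the libraries stood at 150.3, 144, 182 and 116 RPM in heat and 61.4, 124, 149 and 129.6 RPM in control (log2 fold change 0.28, SE 0.33, adjusted p = 0.701). The 2 groups overlapped for each member. The 95% intervals at 4 DAT, -1.17 to 0.26 for miR166-11-5p and -0.65 to 0.39 for miR166-8.b-5p, still hold differences of more than 1.5-fold.

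Over the 6 groups, the lowest mean of miR166-11-5p was that of heat at 0 DAT, followed by heat at 4 and 1 DAT (287 ± 66.5 and 316 ± 110.3 RPM) and control at 4, 1 and 0 DAT (396 ± 106, 439 ± 202 and 481 ± 109 RPM). Only the first step in this order, from heat at 0 DAT to heat at 4 DAT, parted the ranges of neighbouring groups. The same held for miR166-8.b-5p, with heat at 0 DAT below control at 1 DAT (337 ± 27.6 RPM) and the remaining groups between 386 and 476 RPM. That step was narrow, from a highest value of 305.6 RPM to a lowest of 309.6 RPM. Only neighbours by mean were compared. Heat at 1 DAT, with a lowest library of 248 RPM, overlapped heat at 0 DAT for this tag. The group means of miR166-5.3-5p lay between 107 and 148 RPM, and no neighbouring groups were apart.

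Within the heat-stressed plants miR166-11-5p rose after the stress. It was 3.35-fold higher at 1 DAT than at 0 DAT (log2 fold change 1.75, SE 0.39, adjusted p = 0.00878 by edgeR's quasi-likelihood test) and 3.05-fold higher at 4 DAT than at 0 DAT (1.61, SE 0.39, adjusted p = 0.0128). These fits do not use that the days share plants. With the sets of plants as a block, the same test gave 1.77 (adjusted p = 0.0437) and 1.64 (adjusted p = 0.0371). Of all tags, 1.98% were called between 0 and 1 DAT in heat, all of them higher, and 5.45% between 0 and 4 DAT, with 2.48% higher. The call at 1 DAT was lost without heat replicate 2 at 0 DAT (adjusted p = 0.0509), without heat replicate 4 at 0 DAT (0.0687) and without heat replicate 4 at 1 DAT (0.0571), and that at 4 DAT when only library totals were used for scaling (0.0740). miR166-8.b-5p had log2 fold changes of 0.69 at 1 DAT (SE 0.26, adjusted p = 0.216) and 0.74 at 4 DAT (SE 0.26, adjusted p = 0.0799) relative to 0 DAT in heat, which did not pass. miR166-5.3-5p had log2 fold changes of -0.20 and 0.26 in the same comparisons. No member was called between 1 and 4 DAT in heat or between any days in control, nor was any other tag (0% in each of these 4 comparisons, with 5 to 17 of the 202 tags at an unadjusted p under 0.05 and 3 called by DESeq2 and 5 by the likelihood ratio test between 1 and 4 DAT in heat, against 0 by both in control).

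The change of the heat effect itself between days was at the edge of the threshold. The log2 fold change of miR166-11-5p between heat and control was 1.88 higher at 1 DAT than at 0 DAT (SE 0.51, adjusted p = 0.0492), where 2.48% of all tags were called and 1.98% were called higher. With the sets of plants as a block, the difference was 1.91 and did not pass (adjusted p = 0.170). It was also lost in 15 of the 24 fits that left out 1 library, with adjusted p-values of 0.0520 to 0.119: without heat replicate 1, 2 or 4 or control replicate 1, 2 or 3 of 0 DAT, heat replicate 3 or 4 or control replicate 2 or 4 of 1 DAT, and heat replicate 1, 2 or 3 or control replicate 1 or 3 of 4 DAT. Between 0 and 4 DAT the difference was 1.90 (SE 0.51, adjusted p = 0.0553), with 0.99% of all tags called. For miR166-8.b-5p the differences were 1.18 at 1 DAT (SE 0.36, adjusted p = 0.0692) and 0.86 at 4 DAT (SE 0.36, adjusted p = 0.421), and for miR166-5.3-5p they were -0.19 and 0.38. No member and 0% of all tags were called for the change from 1 to 4 DAT, where 5 tags had an unadjusted p under 0.05 and both DESeq2 and the likelihood ratio test called 0.

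Set against the 3p reads of the same listed precursors, the 5p tags were a small minority in each of the 24 libraries. There were 1.11 ± 0.619 reads of miR166-11-5p, 6.44 ± 1.71 of miR166-8.b-5p and 2.25 ± 0.743 of miR166-5.3-5p per 1000 such 3p reads, with 0.5 added to both counts (SD, n = 24 libraries). By the geometric mean, the 3p reads were 1056-fold, 161-fold and 467-fold more abundant. The ratio of miR166-11-5p may be lowered, by an unknown amount, by the breadth of its 3p tags, since miR166-9-3p also matches the precursors on 1B, 1D and 4D. All 3p tags that match those on 5A, 5B and 5D match no other listed precursor. The 5p reads of the 3 tags together ranged from 0.0528% of the family's reads in heat replicate 2 at 0 DAT (exact 95% interval 0.0370% to 0.0731%, which covers counting error only) to 0.237% in control replicate 3 at 1 DAT (0.197% to 0.283%). By group these shares were 0.0634% ± 0.00814 in heat and 0.145% ± 0.0367 in control at 0 DAT, 0.107% ± 0.00534 in heat and 0.136% ± 0.0688 in control at 1 DAT, and 0.0830% ± 0.0121 in heat and 0.113% ± 0.0274 in control at 4 DAT (SD, n = 4 each).

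**Figure D2:**
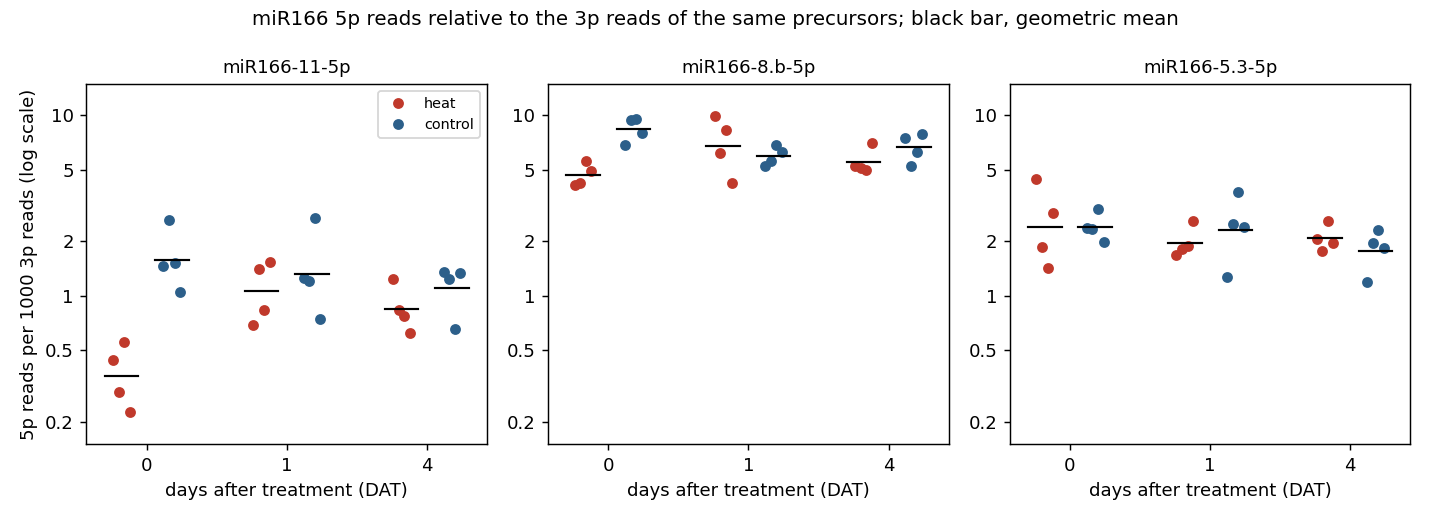
Reads of each miR166 5p tag per 1000 reads of the 3p tags that match the same listed precursors (y axis, log scale) at 0, 1 and 4 DAT (x axis), with heat libraries in red to the left of control libraries in blue; points are libraries and black bars geometric means of 4. At 0 DAT the ratios of miR166-11-5p and miR166-8.b-5p in the heat libraries lie below those of all control libraries, and those of miR166-5.3-5p overlap.

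The ratio to the 3p reads was lower in heat at 0 DAT for the same members whose RPM were lower. miR166-11-5p had 0.442, 0.293, 0.554 and 0.225 reads per 1000 3p reads in heat, against 1.46, 2.62, 1.52 and 1.04 in control. Its groups lay apart, and the difference was -2.14 on the log2 scale (SE 0.40, a 4.40-fold lower ratio, two-sided exact permutation test, p = 0.0286). Its 3p reads include those of other precursors, so this is not a difference between the arms of its own precursors alone. For miR166-8.b-5p the ratios were 4.13, 4.20, 5.62 and 4.91 in heat, against 6.83, 9.48, 9.52 and 7.98 in control. These groups lay apart as well, by -0.84 on the log2 scale (SE 0.15, a 1.79-fold lower ratio, exact p = 0.0286). miR166-5.3-5p had ratios of 4.44, 1.86, 1.42 and 2.86 in heat and 2.39, 2.35, 3.01 and 1.98 in control, with geometric means that were equal at 2 decimals of the log2 scale (exact p = 1). Adjusted over the 9 exact permutation tests of 3 tags on 3 days, the 2 lower ratios had p = 0.129, the lowest that 2 tests at the smallest p can reach among 9, so the adjusted test could not pass. At 1 and 4 DAT the differences ran from -0.39 to 0.23 on the log2 scale, with exact p-values of 0.171 to 0.629.

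The 3p strands opposite the members did not pass the test at 0 DAT. miR166-9-3p averaged 257974 ± 49321 RPM in heat and 307525 ± 65861 RPM in control (log2 fold change -0.25, SE 0.25, adjusted p = 0.588), and miR166-8.a-3p 43179 ± 2719 RPM in heat and 49076 ± 5263 RPM in control (-0.18, SE 0.18, adjusted p = 0.580). The values of these abundant strands thus differed less between heat and control than the 5.14-fold and 1.99-fold falls of the 5p tags. miR166-9-3p also matches the precursors on 1B, 1D and 4D, so its value is not that of the 7B and 7D strand alone. Whether the 3p strand of 7B and 7D changed with heat was not tested. miR166-5.b-3p, opposite miR166-5.3-5p, averaged 223 ± 64.1 RPM in heat and 379 ± 128 RPM in control (-0.78, SE 0.35, adjusted p = 0.139). In this duplex the value of the 3p strand differed more between heat and control than that of the 5p strand, though neither passed. At 0 DAT the ratio of miR166-5.3-5p to this 3p tag was 0.56 higher in heat on the log2 scale (SE 0.33). The libraries overlapped (two-sided exact permutation test, p = 0.114, and 0.257 adjusted over 9 comparisons). Relative to this 3p tag alone, miR166-5.3-5p stood at 376 ± 68.4 reads per 1000 in heat and 223 ± 88.7 in control at 4 DAT, without overlap (log2 difference 0.86, SE 0.40, exact p = 0.0286, and 0.0857 adjusted over 9 comparisons), whereas relative to all 3p reads of its precursors the difference on that day was 0.23 (exact p = 0.4).

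**Figure D3:**
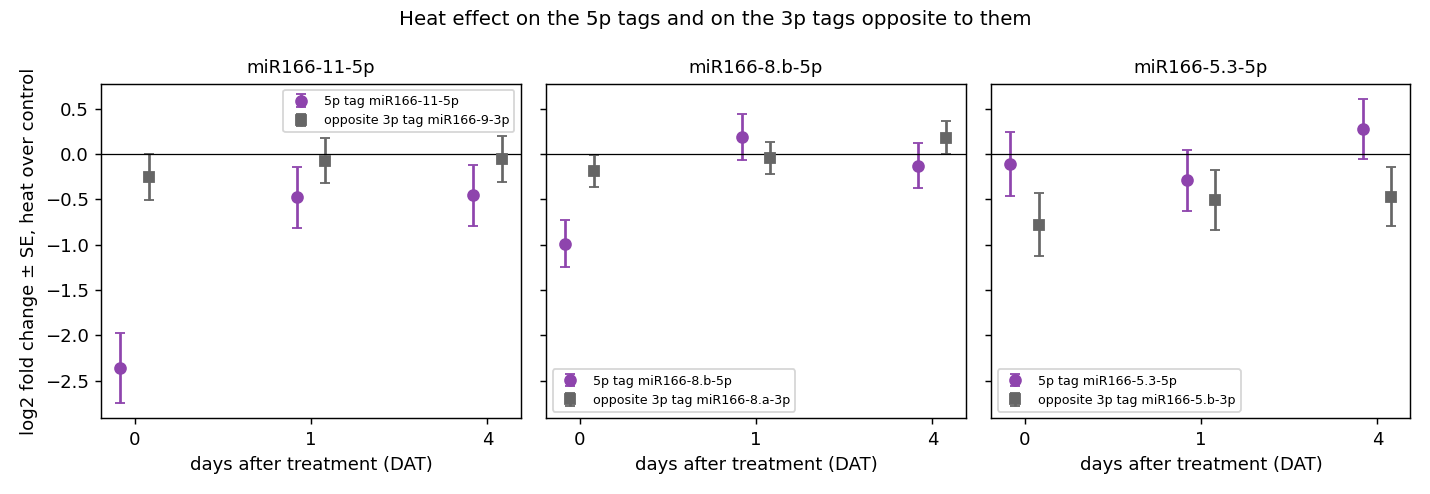
Log2 fold change of heat over control (y axis, ± SE from edgeR's quasi-likelihood fit) at 0, 1 and 4 DAT (x axis) for each miR166 5p tag (purple circles) and the 3p tag opposite to it in the duplex (grey squares). miR166-11-5p is at -2.36 and miR166-8.b-5p at -0.99 at 0 DAT, beside -0.25 and -0.18 for their 3p tags.

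Across the family, the called tags of the 5p arm were lower in heat at 0 DAT. The called tags of the 3p arm were higher, but no larger a share of that arm was called than of all tags. Of the 20 tags of the 3p arm, 3 were higher, none was lower and 17 did not pass, with a median log2 fold change of -0.08 beside -0.04 over all 202 tags, of which 17.3% were called in either direction (18 higher and 17 lower). The 3 were miR166-13-3p (2.64, SE 0.45, adjusted p = 0.000175), miR166-12.b-3p (1.65, SE 0.32, adjusted p = 0.000670) and miR166-5.a-3p (1.55, SE 0.31, adjusted p = 0.00125), of which miR166-12.b-3p was named after its value had been seen. They are 18 or 19 nt long, shorter than the 21 nt of the 5p tags, and the 7 tags of 21 nt on the 3p arm had 0 called with log2 fold changes of -0.79 to 0.42. Of the 3 tags of 19 nt, 1 was higher and 2 did not pass, miR166-7.a-3p at -0.72 and miR166-1-3p at 0.74. Among the 9 tags of the 3p arm from the 5A, 5B and 5D precursors, 1 was higher and 8 did not pass, and among the 6 that match 7B and 7D, 1 was higher and 5 did not pass. At 1 DAT 1 of the 20 was higher, miR166-12.b-3p (1.18, adjusted p = 0.0175), and 1 was lower, miR166-7.a-3p (-1.06, adjusted p = 0.0175), of which 0 passed with the same-numbered libraries as a block. At 4 DAT none passed.

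**Figure D4:**
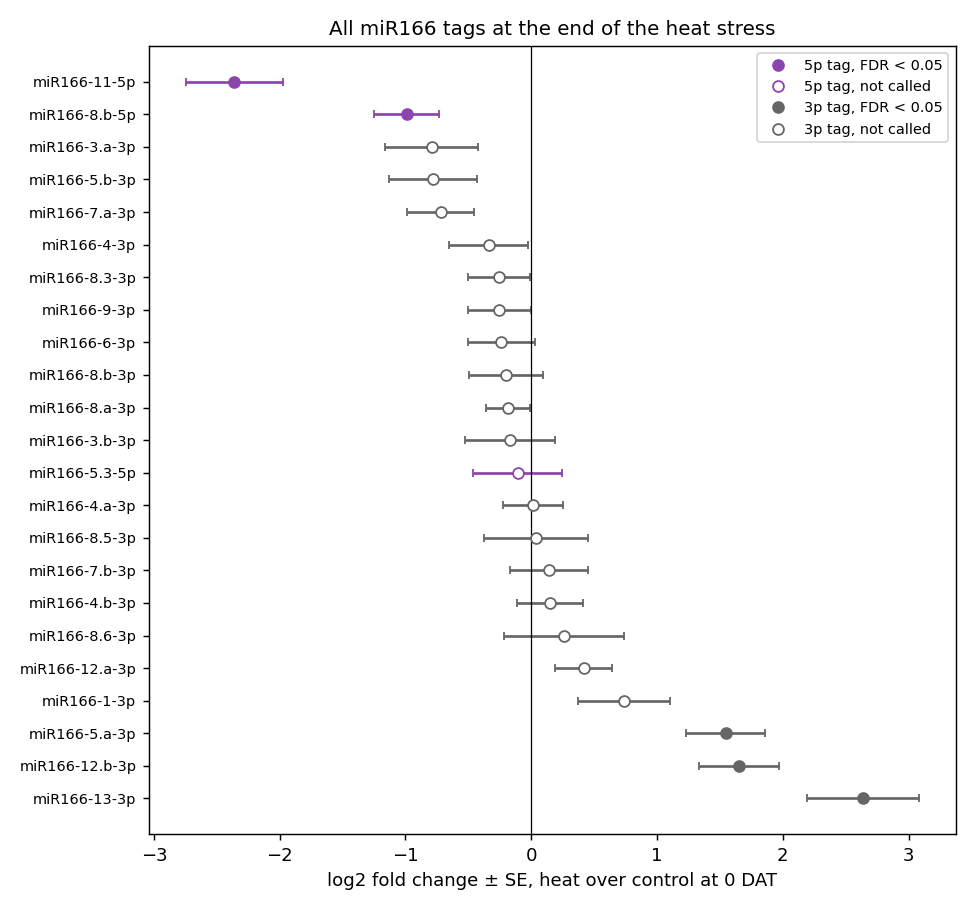
Log2 fold change of heat over control at 0 DAT (x axis, ± SE from edgeR's quasi-likelihood fit) for all 23 tags of family miR166 (y axis, ordered by value), with 5p tags in purple and 3p tags in grey; filled circles passed the threshold of 0.05 after Benjamini-Hochberg adjustment. miR166-11-5p and miR166-8.b-5p have the lowest values, and the 3 called 3p tags, of 18 or 19 nt, the highest.

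Tags of the minor arm in other families, the arm with fewer counted reads in the family as a whole, were compared over a list of 11 that was chosen with earlier results of these data known. A tag of the minor arm need not be rarer than the strand it pairs with, and miR9662-1.3-5p held 11772 of the 12163 reads of its arm, against 50001 on the other arm. At 0 DAT 3 of the 11 were lower in heat, none was higher and 8 did not pass, with a median log2 fold change of -0.31 beside -0.04 over all tags. Of all tags, 8.42% were called lower and 17.3% in either direction. The 11 values ran from -2.42 to 1.08, with 7 below 0, so they did not share a direction. The lower ones were miR528-1.3-3p (88.7 RPM in heat and 306 RPM in control, log2 fold change -1.67, adjusted p = 0.0374), miR9662-2.8-5p (53.2 RPM in heat and 122 RPM in control, -1.28, adjusted p = 0.0414) and miR9662-1.3-5p (1954 RPM in heat and 4417 RPM in control, -1.17, adjusted p = 0.000651). At 1 DAT miR528-1.3-3p was higher in heat (428 RPM in heat and 144 RPM in control, log2 fold change 1.60, adjusted p = 0.0461) and the other 10 did not pass, against 11.4% of all tags called. At 4 DAT 0 of the 11 and 0% of all tags were called.

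The tags whose log2 RPM ran most like those of the members over the 24 libraries were sought among 120 tags with a mean count of at least 20. These correlations are given as a description, since the 24 libraries share plants, groups and scaling. For miR166-11-5p they were miR528-1.a-5p of a monocot family (Pearson's r = 0.83), miR9662-1.3-5p (0.76) and miR9772-6-5p (0.72), and for miR166-8.b-5p they were miR9662-1.3-5p (0.79), miR528-1.a-5p (0.76) and miR166-7.a-3p (0.53). With the group means taken out, r was 0.23, 0.08 and 0.24 for miR166-11-5p and 0.52, 0.50 and 0.48 for miR166-8.b-5p. Like miR166-11-5p and miR166-8.b-5p, miR528-1.a-5p was lowest in heat at 0 DAT, with 13.4 RPM in heat and 1012 RPM in control (log2 fold change -6.21, SE 0.57, adjusted p = 1.1e-08). As miR528-1.a-5p was picked by its r over the same libraries, this shared low is no separate likeness. miR166-5.3-5p had no close counterpart, the highest r being 0.32 with miR166-8.b-3p. With 5 to 36 reads of miR166-5.3-5p per library, counting error limits how high any r of this tag can be. Between the members, r was 0.62 for miR166-11-5p and miR166-8.b-5p and 0.02 with the group means taken out, and it was -0.05 for the overlapping tags miR166-8.b-5p and miR166-5.3-5p.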

How the data were processed

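Small RNA libraries from 24 leaf RNA pools were analysed, 4 for each of 6 groups, with group, day and replicate number taken from the sample labels. After MiSeq sequencing and adapter trimming, the authors retained 18 to 24 nt reads free of chloroplast sequences and of other classes of non-coding RNA, and used Bowtie2 to place tags that reached 10 RPM in some library on precursors of IWGSC RefSeq v1.0. The Bowtie2 version is not given in the sources used here. Tags were retained on hairpin evidence, which bears on which 5p tags are counted. The star sequence was assessed as well, and the paper reports it for only a part of the mature miRNAs. What was deposited is a table of raw counts, whole read numbers per tag and library without normalization. The 202 tags were identified by name and sequence. Precursor sequences and high quality read numbers came from the study's supplementary tables. No gene annotation was used.

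RPM were computed with TMM factors, log2 RPM with a prior count of 2. The 6 groups were fitted in edgeR 4.0.16 (estimateDisp, glmQLFit, glmQLFTest) with no block and no filter, and p-values were adjusted by Benjamini-Hochberg over the 202 tags of each contrast at a threshold of 0.05. The scripts were tested on simulated data. The 95% intervals of log2 fold changes use 18 residual degrees of freedom. Ratios of 5p to 3p reads had a pseudocount of 0.5 on both counts, with the summed 3p tags that match the same precursors as denominator. The opposite 3p tag was the one with 2-base 3′ overhangs at both ends and the most paired bases. Ratios were tested with exact two-sided permutation tests (4 against 4 libraries), the order of the members with exact sign-flip tests over 8 sets of plants. Other tools were R 4.3.3 with DESeq2 1.42.0 and limma 3.58.1, and Python 3.11.15 with matplotlib 3.10.9, pandas 2.3.3, scipy 1.17.1 and numpy 2.4.6.

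All 3 members were named, with the 3p tags of the same precursors or duplexes, per member the 3 most alike tags of other kinds, and called tags of a list of minor arms. The members and lists were chosen with earlier results of these data known.

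Within a treatment, same-numbered libraries come from the same plants by the study's methods. Their deviations from the group means nevertheless correlated by over 0.1 in at most 3 of 4 sets for any pair of days. In heat the correlations were -0.16 to 0.40 between 0 and 1 DAT, -0.24 to 0.06 between 0 and 4 DAT and -0.55 to 0.06 between 1 and 4 DAT. In control they were -0.002 to 0.44, -0.37 to 0.15 and -0.53 to -0.12. No source says what a shared number means across treatments. There, such deviations correlated, over tags with a mean count of at least 20, by -0.12 to 0.26 at 0 DAT, 0.24 to 0.57 at 1 DAT and -0.17 to 0.54 at 4 DAT, so the numbers were taken as pairing heat and control at 1 DAT only. All replicate pairs differed by more than sampling noise (36 pairs, chi-square per degree of freedom of 5.21 or more). Totals of 58501 to 300261 reads leave 5 to 114 reads per member and library. Reads carry no molecular identifiers. The exact intervals of read shares cover counting error only, whereas the intervals of fold changes rest on the SE of the edgeR fit, which includes the spread between libraries. Alternatives were other scalings, tests and denominators, a filter, a replicate block, summed overlapping tags and leaving out each library.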

Additional observations from a re-analysis of the deposited data

Results flagged for a closer look

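The heat effect on miR166-11-5p was at the threshold for a difference between days, with a log2 fold change of heat over control 1.88 higher at 1 DAT than at 0 DAT by the interaction term of the edgeR fit (adjusted p = 0.0492). With the sets of plants as a block it did not pass (adjusted p = 0.170), nor in 15 of the 24 fits without 1 library (0.0520 to 0.119). Of 36 sets of 4 libraries (RPM and 5p to 3p ratios of the 3 tags in the 6 groups), 2 had a library that stood far from the other 3. In control at 4 DAT, the log2 ratio of miR166-11-5p to the 3p reads of its precursors was -10.58 in replicate 3, below the others. In heat at 4 DAT, the log2 ratio of miR166-8.b-5p was -7.16 in replicate 4, above the others. By chance, about 1 in 20 such sets would hold such a library.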

How the results depend on the processing

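The falls of miR166-11-5p and miR166-8.b-5p at 0 DAT kept their direction under 10 alternatives each and in the 24 fits without 1 library (log2 fold changes of -2.65 to -2.16 and -1.15 to -0.88). Their calls held throughout, except that of miR166-8.b-5p with no normalization factors (-0.90, adjusted p = 0.0670), where the median of all tags moved by 0.13 and 17 tags were higher and 7 lower, against 18 and 17. Summed with miR166-5.3-5p, miR166-8.b-5p gave -0.74 (adjusted p = 0.0274). With the replicate block at 0 DAT the values were -2.40 and -1.03 (adjusted p = 0.00843 and 0.0248), and the block changed no call other than the heat effect of miR166-11-5p between 0 and 1 DAT (1.91, adjusted p = 0.170). No setting called a member between heat and control at 1 or 4 DAT. The tests of the 9 ratios of 5p to 3p reads could pass after adjustment only with at least 6 of the 9 at the smallest p, so that their p-values say nothing of stability. For the ratio of miR166-5.3-5p to its opposite 3p tag, heat minus control on the log2 scale was 0.20 at 1 DAT. With all its 3p reads it was -0.23 on that day, the other sign. At 0 DAT it was 0.56 with the opposite 3p tag and -0.00045, in effect no difference, with all its 3p reads. None of these passed.

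Changes between days depended more on the scaling. With no normalization factors, miR166-11-5p lost its rise from 0 to 4 DAT in heat (1.21) and the change of its heat effect from 0 to 1 DAT (1.77), and between 0 and 4 DAT in heat the median of all tags moved by -0.43 and the calls were 1 higher and 13 lower, against 5 and 6. With high quality reads as library size that median moved by 0.33 (12 higher and 4 lower) and that between 0 and 1 DAT in heat by 0.38, and with TMM factors of the other families by 0.16 (8 higher and 5 lower) and 0.18. For miR166-8.b-5p, the rise in heat from 0 to 1 DAT passed with TMM factors of the other families (0.87) and with high quality reads as library size (1.14), and that from 0 to 4 DAT with the same settings (0.91 and 1.11) and with a mean count of at least 20 (0.69). The change of its heat effect from 0 to 1 DAT passed with these 3 settings (1.30, 1.51 and 1.09) and with DESeq2 (1.15). The change of the heat effect of miR166-11-5p from 0 to 4 DAT passed with the same 4 settings (2.01, 2.17, 1.83 and 1.91) and with the likelihood ratio test (1.91). Without single libraries, the rise of miR166-11-5p from 0 to 1 DAT was 1.52 to 2.03, the change of its heat effect was 1.66 to 2.17 to 1 DAT and 1.70 to 2.19 to 4 DAT, and that of miR166-8.b-5p to 1 DAT was 1.02 to 1.34.

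The number of tags called moved from 35 to 19 at 0 DAT with the filter and to 22 without heat replicate 3 of 0 DAT. At 1 DAT it moved from 23 to 5 with no factors, 11 with the filter, 1 with the 8 libraries of the day and 2 with the replicate block, and to between 1 and 13 without heat replicate 1, 3 or 4 or control replicate 2 or 3 of that day. With TMM factors of the other families or RLE factors 13 were higher and 6 lower, and the calls with high quality reads were 21 higher and 4 lower, against 13 and 10, with the median moved by 0.27. At 4 DAT it moved from 0 to between 1 and 4 in 6 settings. The 2 calls on the 3p arm at 1 DAT became 1 with no factors and 0 with the 8 libraries of the day or the block. miR166-5.3-5p, under a mean count of 20, had no value with the filter. With 5 to 36 reads of this tag per library, its 95% interval at 0 DAT ran from 0.554-fold to 1.56-fold, and its SD in heat on that day was 1.81 times that from counting error alone.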
